A study of Mus musculus with 9 samples.

Results

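Ubiquitin-conjugating (E2) enzymes were followed in the RNA of extracellular vesicles (EVs), membrane-bound particles shed by cells that carry some of their RNA and protein. The members are all genes whose name on the array starts with Ube2, 34 of the 36413 gene names there, and each gene is represented by its probe of highest mean signal over the arrays. The rule uses names and brightness, not the comparison between groups. All members are called E2 genes here by that name, which does not show that each encodes an E2 enzyme. EVs came from mouse embryonic fibroblasts (MEFs), and total EV RNA was measured on 5 arrays labelled PBS-treated and 4 arrays labelled control, 1 array a sample. PBS is phosphate-buffered saline. The labels give no strain, sex or passage of the MEFs, which the methods describe as bought cells, and leave unsaid whether PBS treatment included the electric pulses that the study uses for transfection. Neither group is labelled as having received a plasmid. Nothing says that the replicates are separate cultures, so each p-value rests on a spread between samples that may be technical. Each array received RNA pooled over many vesicles, so fewer vesicles or donor cells carrying an RNA and fewer copies in each cannot be told apart.

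Ubiquitin is a small protein that is attached to other proteins in a relay. An E1 enzyme activates it, an E2 enzyme carries it on a cysteine of its active site, and an E3 ligase brings the loaded E2 to the substrate. The E2 often sets the kind of chain that is built: chains through the lysine named K48 send a protein to the proteasome, and chains through the lysine named K63 serve in signalling and DNA repair. A few E2 enzymes carry other proteins of the ubiquitin fold instead, such as SUMO, NEDD8 or ISG15. In fibroblasts, as in other dividing cells, these enzymes take part in protein quality control, cell cycle exit and DNA repair. An EV array measures their transcripts or fragments of them, not the enzymes.

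A level is given as log2 of the background-corrected signal minus log2 of a 75th percentile, taken on each array over probes detected on all arrays, and a difference is PBS-treated minus control on that log2 scale. Levels compare arrays for the same probe only, since probes differ in how well they bind. A probe counts as detected where the scanner software marks it well above background, and genes detected on at least 4 of the 9 arrays were tested with limma. A gene is called when its p, adjusted by Benjamini-Hochberg over all 14284 genes tested, is under 0.05.

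Of the 34 genes with a Ube2 name, 28 passed the filter and 6 did not. Among the 28, 16 were higher in PBS-treated EVs, 1 was lower, and 11 did not pass the test. The share called higher was 57.1%, against a background of 31.6% of all genes tested, and the share called lower was 3.57%, against 20.7%. In either direction 17 of the 28 were called, against a background of 52.3%. These background counts, 4512 genes higher and 2955 lower, move with the scaling, to 8951 and 708 when arrays are scaled to spike-in RNAs and to 1887 and 4652 when background is modelled with normexp. The median difference of the 28 members was 0.75, and that of all genes tested was -0.02. It was 0.66 with Ube2g1, which no control array detected, at its bound of 1.19-fold. All 28 tested members were detected on all 5 PBS-treated arrays, and 22 of them on all 9. Among those 22, 13 were higher, 1 was lower and 8 did not pass, against a background of 31.3% higher and 27.6% lower among 7169 genes detected on all 9 arrays. The 6 untested members (Ube2cbp, Ube2d1, Ube2dnl, Ube2ql1, Ube2t and Ube2u) were not well above background on any array.

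The groups did not overlap for 16 of the 28 tested members, 15 with every PBS-treated array above every control array and 1 with every PBS-treated array below. In all genes tested the shares were 29.4% and 17.6%. Replicates of the members lay close together. The median SD over members was 0.18 among PBS-treated arrays and 0.31 among control arrays, against 0.27 and 0.43 over all genes tested. Of the 28 members 22 were detected on all 9 arrays, against 7169 of the 14284 genes tested. No SD was taken over genes of like detection.

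Some facts of the arrays bear on all of these values. PBS-treated arrays had 16492 to 19233 probes well above background and control arrays 12584 to 15554, on average 3953 more (two-sided p = 0.00794, exact permutation test over 126 splits). Within slides the difference was 2447 on slide 1 and 5519 on slide 2, and with arrays exchanged only within their slide the exact permutation test gave p = 0.0333 over 60 splits. The 75th percentile lay -3.06 to -2.84 (log2) from the spike-in signal on PBS-treated arrays and -4.32 to -4.13 on control arrays, so scaling to spike-in RNAs adds 1.29 to every difference. With that scaling all 28 tested members were called higher and the median of all genes was 1.27. The arrays lay on 2 slides, slide 1 holding replicates 1 to 3 of the PBS-treated group with replicates 1 and 2 of the control group, and slide 2 the rest. All 17 called members had the same sign on both slides, 15 of them were called on slide 1 alone, 17 on slide 2 alone and 17 with slide as a block. The 17 were picked as called on all 9 arrays, so this agreement is partly built in. The block added Ube2q1, Ube2s and Ube2z, so that 18 members were called higher and 2 lower. Over all 14284 genes tested the block called 5064 higher and 4891 lower, and 8894 genes were called on slide 1 alone and 9113 on slide 2 alone. Of 10 fibroblast markers, 9 were tested and Thy1 was detected on no array. Their summed level was 3.61 to 3.85 (log2) in PBS-treated and 3.51 to 3.79 in control EVs, while single markers moved both ways, with 2 higher, 3 lower and 4 not passing (median -0.44). Dcn, a matrix proteoglycan, was higher by 2.03, and Pdgfra, Col1a1 and Fn1 were lower by -1.95, -1.35 and -1.17. Of 9 macrophage and leukocyte markers 3 were tested and all were called, Cd14 higher by 2.21 and Itgam and Csf1r lower by -1.30 and -2.70, and Cd68, Emr1 and Lyz2 were detected on no array. Their summed level was 0.12 to 1.06 in PBS-treated and 1.08 to 1.65 in control EVs. Of 5 endothelial markers Kdr and Pecam1 were lower, by -1.43 and -1.81, and Cdh5, Cldn5 and Tek were detected on no array. Of 6 epithelial markers Krt19 was lower by -0.93, Cldn4 did not pass, and Cdh1, Epcam and Krt18 were detected on no array. The part of these cell types in the results was not tested. The part of the number of detected probes in the results was not tested.

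**Figure D1:**
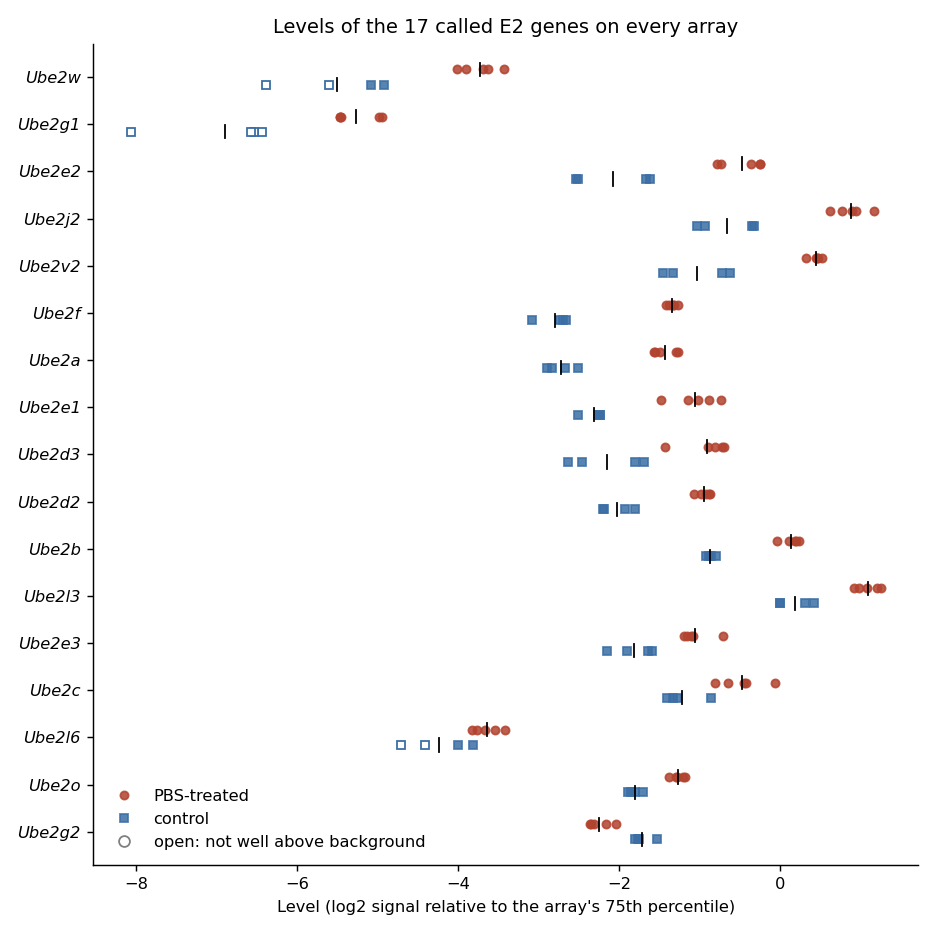
Levels of the 17 called E2 genes on every array (x axis, log2 signal minus the log2 75th percentile of the array). Red circles are the 5 PBS-treated and blue squares the 4 control arrays, black bars are group means, and open symbols are arrays where the probe was not well above background. In 16 of the 17 rows the groups do not overlap, and in Ube2g2 alone the PBS-treated arrays lie to the left.

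The Ube2d and Ube2e families hold the E2 enzymes that work with the widest range of E3 ligases. All 5 tested members were higher in PBS-treated EVs, with a median difference of 1.23, while Ube2d1 and Ube2dnl were detected on no array. Ube2e2 read -0.37, -0.25, -0.25, -0.79 and -0.74 in PBS-treated EVs, against -1.62, -1.67, -2.54 and -2.51 in control EVs. The control arrays split by slide, and even the 2 higher ones stayed below every PBS-treated array. The difference was 1.60 ± 0.25 (SE, 3.04-fold, limma adjusted p = 0.000855). Ube2e1 read -0.73, -1.02, -0.89, -1.48 and -1.15 in PBS-treated EVs, against -2.27, -2.24, -2.24 and -2.51 in control EVs. Its difference was 1.26 ± 0.17 (2.39-fold, adjusted p = 0.000319), with all PBS-treated arrays above all control arrays. Ube2d3 differed by 1.23 ± 0.25 on all arrays, and on slide 1 alone by 0.79, which missed the threshold (adjusted p = 0.0516). Ube2d2, listed in RefSeq as Ube2d2a, differed by 1.08 ± 0.12, and Ube2e3, the least changed of the 5, by 0.77 ± 0.16.

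The next group acts on DNA and chromatin or on protein ends. Ube2a and Ube2b are the mammalian counterparts of yeast Rad6 and, with the ligase Rad18, mark the replication clamp after DNA damage. Ube2w attaches ubiquitin to the amino end of proteins, and Ube2t serves the Fanconi anaemia pathway. All 3 tested members were higher, and Ube2t was detected on no array. Ube2w read -3.69, -3.91, -4.02, -3.63 and -3.43 in PBS-treated EVs, against -5.09, -4.92, -5.60 and -6.39 in control EVs, where it was well above background on 2 of the 4 arrays. Its difference, 1.76 ± 0.30 (3.40-fold, adjusted p = 0.00121), had the largest fitted value among the 28 members, and it was -0.03 with normexp. Ube2a read -1.30, -1.49, -1.28, -1.56 and -1.57 in PBS-treated EVs, against -2.51, -2.67, -2.90 and -2.84 in control EVs. That is a difference of 1.29 ± 0.13 (2.45-fold, adjusted p = 7.5e-05), several times the spread of either group. Ube2b read 0.10, -0.04, 0.22, 0.20 and 0.18 in PBS-treated EVs, against -0.89, -0.81, -0.87 and -0.93 in control EVs. The 4 control arrays lay between -0.93 and -0.81, and the difference was 1.01 ± 0.10 (2.01-fold, adjusted p = 8e-05).

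Ube2b shows how far 2 probes of the same transcript agree, because its probe of highest signal overlaps another over 49 of their 60 bases on the minus strand of chromosome 11 (mm9). The first 30 bases of each are shown, from chr11:51800188-51800217 and chr11:51800199-51800228, with the bases common to both windows in capitals.
Ube2b first probe: GGCCATTGTTGAGCAAAGCtggaatgattc
Ube2b second probe: aagagagtttcGGCCATTGTTGAGCAAAGC
The first gave 1.01 ± 0.10 and the second 0.90 ± 0.17, so shifting the probe by 11 bases moved the difference by less than the SE of the second probe. Another Ube2b probe elsewhere on the gene gave 1.59 ± 0.33. All 3 were called.

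Ligases that work with the DNA damage and chromatin E2 enzymes were followed in a list of 10, of which 8 were tested. There, 4 were higher, 0 were lower and 4 did not pass, with a median difference of 0.77, or 0.52 with Ubr1 at its bound. By smallest p these were Fancl, the Fanconi ligase that pairs with Ube2t (difference 1.38 ± 0.20, adjusted p = 0.000508, detected on 5 PBS-treated and 2 control arrays), and Ubr1, an N-degron ligase that pairs with Ube2a and Ube2b. Ubr1 was detected on 4 PBS-treated arrays and no control array, with a PBS-treated mean of -5.39 and a control mean of -6.27, 1.10-fold higher at its bound (adjusted p = 0.000524). With normexp both were lower in PBS-treated EVs, by -0.19 and -0.60.

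**Figure D2:**
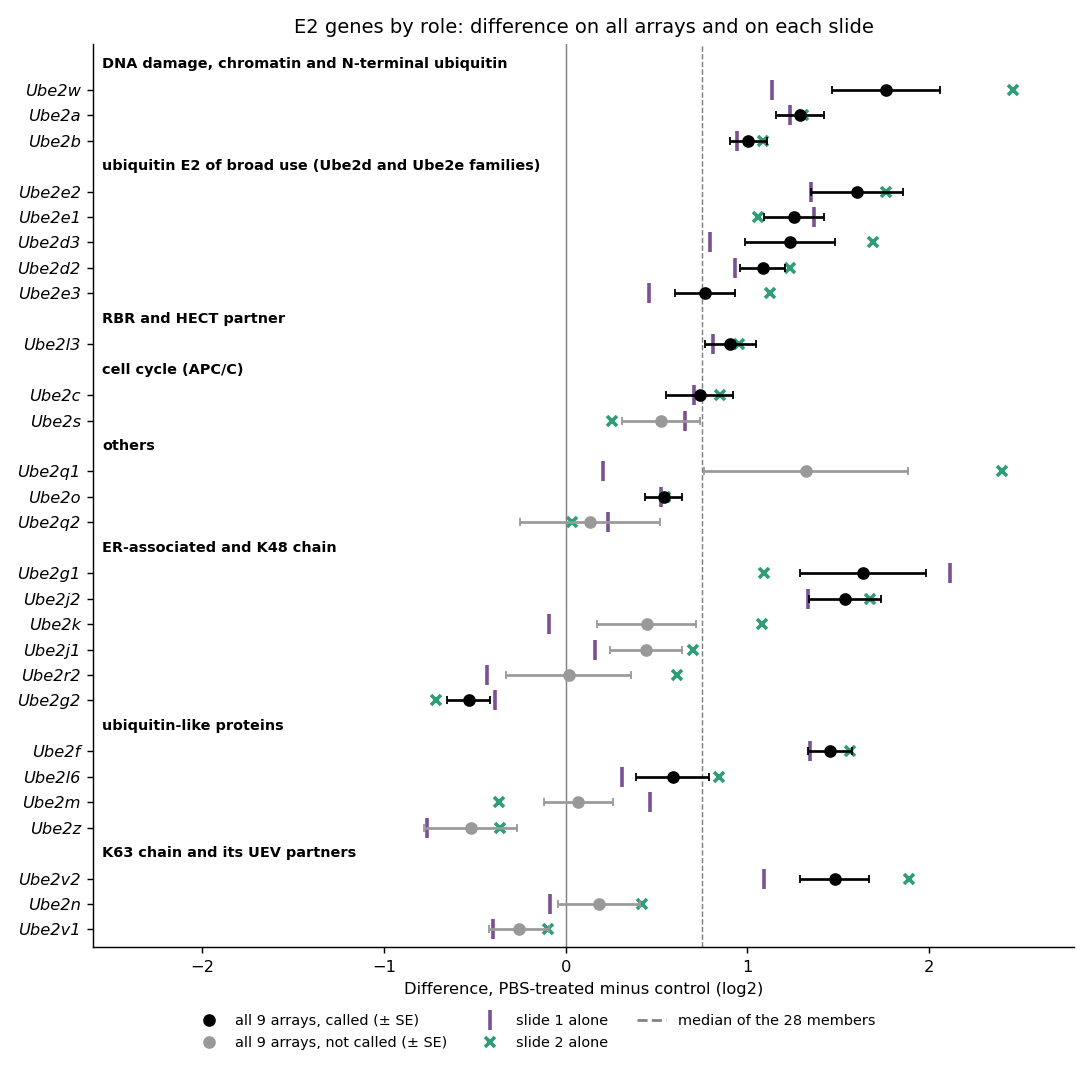
Differences of 27 of the 28 tested E2 genes (x axis, PBS-treated minus control, log2), grouped by role. Black circles are called and grey ones not called (± SE), purple bars and green crosses are the values on slide 1 and slide 2 alone, and the dashed line is the members' median of 0.75. The DNA damage and Ube2d and Ube2e groups lie wholly to the right of 0, while the ER-associated, ubiquitin-like and K63 groups spread over both sides.

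The E2 enzymes of endoplasmic reticulum (ER) quality control and K48 chains were mixed. Of 6 members, all tested, 2 were higher, 1 was lower and 3 did not pass. Ube2j2 and Ube2j1 are anchored in the ER membrane, Ube2g2 serves the degradation of ER proteins, and Ube2g1, Ube2k and Ube2r2 build K48 chains. Ube2j2 read 0.89, 0.94, 1.16, 0.61 and 0.76 in PBS-treated EVs, against -0.35, -0.33, -1.03 and -0.94 in control EVs. Every PBS-treated array was above the array's percentile and every control array below it. The difference was 1.54 ± 0.20 (2.90-fold, adjusted p = 0.000275).

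Ube2g1 was detected on all 5 PBS-treated arrays, at -4.98, -4.95, -5.47, -5.46 and -5.47, and on no control array, where the signal read -8.06, -6.44, -6.54 and -6.57. For such a probe the fold is a bound, set against the lowest signal that counted as well above background on each control array. It is not a strict lower limit, since undetected probes can read above that signal, as Ube2n did on control replicate 4 (-4.02). On control replicates 3 and 4 that signal was -5.04 and -4.74, above the Ube2g1 readings of PBS-treated replicates 4 and 5. At that bound Ube2g1 was 1.19-fold higher in PBS-treated EVs (PBS-treated mean -5.27, control mean -6.90, adjusted p = 0.00402), and with normexp its difference was -0.46. It was the only tested member detected in PBS-treated EVs alone, and it passed the filter through those arrays only.

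Ube2g2 was the 1 member called lower. It read -2.32, -2.16, -2.05, -2.35 and -2.37 in PBS-treated EVs, against -1.81, -1.77, -1.53 and -1.75 in control EVs. The groups did not overlap, and the difference was -0.53 ± 0.12 (1.45-fold lower, adjusted p = 0.00536), with -0.39 on slide 1 and -0.72 on slide 2. Scaled to spike-in RNAs it was higher, by 0.76, and with the percentile over all probes or the authors' value table it was -0.13 and -0.15 and not called. The call was also lost with quantile normalization (-0.48, adjusted p = 0.0591), with normexp (-0.41, adjusted p = 0.0778) and with no filter on dim probes (adjusted p = 0.0591). A second Ube2g2 probe, detected on 2 PBS-treated and 2 control arrays, also read lower, by -1.46 ± 0.50 (adjusted p = 0.0378).

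The probes of the 3 largest fitted rises and of the fall are shown by their last 30 bases, since the probe sets which stretch of the transcript is read. The fitted value of Ube2g1 rests on control arrays that did not detect it and has no order against the others. They lie at chr1:16560862-16560891 on the minus strand (Ube2w), chr11:72499929-72499958 on the plus strand (Ube2g1), chr14:19406130-19406159 on the minus strand (Ube2e2) and chr10:77108544-77108573 on the plus strand (Ube2g2), all on mm9. Capitals would mark AATAAA, the hexamer that signals where a transcript is cut and its poly(A) tail added, and none of the 4 probes holds it.
Ube2w: aaagtgagggatccaacattacattgaaag
Ube2g1: cttaatcatgtgatgggtgctctataaatc
Ube2e2: tttgactgtggatcagttgatgtatacttg
Ube2g2: ccacacacagagtggtcacagggcatgtcg
Of the 34 chosen probes, 5 (14.7%) hold AATAAA on the transcript strand and 2 (5.9%) hold its complement TTTATT, against 10.1% and 3.7% of all 55681 probes. AATAAA was in the probes of 2 of the 17 called members (Ube2d2 and Ube2l3) and of 2 of the 11 that did not pass. The longest run of bases shared by probes of different members was 11 bases, so no probe of a member repeats a longer stretch of another member's probe.

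The other 3 members of the ER-associated and K48 group did not pass. Ube2k read -1.30 to -0.30 in PBS-treated EVs and -1.61 to -0.65 in control EVs (difference 0.45 ± 0.27). Ube2j1 read -0.999 to -0.51 and -1.55 to -0.81 in PBS-treated and control EVs (0.44 ± 0.20), and Ube2r2 read -2.01 to -0.28 in PBS-treated and -1.06 to -0.62 in control EVs (0.02 ± 0.34). In each the groups overlapped. Among 10 genes of ER-associated degradation, 7 were tested, and 0 were higher, 2 were lower and 5 did not pass, with a median difference of -0.21. Derl1, a channel component of the ER membrane, was lower by -1.41 ± 0.13 (adjusted p = 5.1e-05), and with spike-in scaling it was -0.12.

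The role group for ubiquitin-like proteins held 5 E2 enzymes, of which 2 were higher and 3 did not pass. Ube2f, which loads NEDD8 onto cullins together with Rnf7, read -1.42, -1.33, -1.32, -1.28 and -1.38 in PBS-treated EVs, against -2.66, -2.74, -2.70 and -3.09 in control EVs. Its PBS-treated arrays had an SD of 0.06, and the difference was 1.45 ± 0.12 (2.74-fold, adjusted p = 2.8e-05), the smallest p among the members. Ube2m, the other NEDD8 enzyme, did not pass (0.07 ± 0.19), and its sign differed between slides, 0.47 on slide 1 and -0.37 on slide 2. The difference between Ube2f and Ube2m was not tested.

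Ube2l6, which carries the interferon-induced modifier ISG15, differed by 0.59 ± 0.20 (adjusted p = 0.0352), with overlapping groups and detection on 2 of the 4 control arrays. This call was lost without PBS-treated replicate 1, 3 or 5 or control replicate 3 or 4 (adjusted p = 0.08, 0.0674, 0.0604, 0.0844 and 0.0801), and with normexp the value was -0.24. Ube2z, which is loaded by the E1 enzyme Uba6, did not pass at -0.52 ± 0.26. It was called lower without control replicate 4 (-0.72, adjusted p = 0.0415) and with slide as a block (-0.58, adjusted p = 0.0189), and scaled to spike-in RNAs it was 0.77.

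The partners of these enzymes differed from one another. The list of NEDD8 ligases holds 13 genes, cullins among them. Of these 11 were tested, and 9 were higher, 0 were lower and 2 did not pass, with a median difference of 1.46. Cul1, the scaffold of SCF ligases, was detected on 5 PBS-treated arrays and no control array. Its PBS-treated mean was -3.47 and its control mean -5.88, 3.72-fold higher at its bound (adjusted p = 6.5e-06). With normexp its difference was 0.19, which is below that bound. Cul4b, a scaffold used in DNA repair, averaged -2.13 ± 0.13 on the 5 PBS-treated arrays and -4.43 ± 0.43 on the 4 control arrays (SD), of which 2 detected it (difference 2.30 ± 0.20, adjusted p = 3.6e-05). Among 11 SUMO ligases and proteases 7 were tested, with 2 higher, 1 lower and 4 not passing and a median of 0.51. Senp3, a nucleolar SUMO protease, differed by 0.99 ± 0.09 (adjusted p = 4.7e-05), and Pias1, a SUMO ligase of STAT signalling, by 1.80 ± 0.22 (adjusted p = 0.000221).

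Ube2n is the E2 enzyme of K63 chains and works only as a pair with Ube2v1 or Ube2v2, which have the E2 fold but no active cysteine. Ube2v2 read 0.46, 0.32, 0.45, 0.46 and 0.52 in PBS-treated EVs, against -0.63, -0.73, -1.46 and -1.33 in control EVs. The groups lay far apart, and the difference was 1.48 ± 0.19 (2.79-fold, adjusted p = 0.000285). Ube2v1 read 1.47, 1.49, 0.83, 1.25 and 1.45 in PBS-treated EVs, against 1.63, 1.70, 1.40 and 1.50 in control EVs. Its groups overlapped, the difference was -0.26 ± 0.16 (adjusted p = 0.216), and with spike-in scaling it was 1.03. Ube2n itself did not pass (0.18 ± 0.23), with levels of -3.34 to -2.97 in PBS-treated and -4.02 to -2.95 in control EVs. Of 9 TRAF and other K63 ligases, all tested, 4 were higher, 1 was lower and 4 did not pass (median 0.88, or 0.81 with the 2 genes that no control array detected at their bounds). Birc3, an inhibitor of apoptosis, was detected on 5 PBS-treated arrays and no control array and was 1.57-fold higher at its bound (PBS-treated mean -4.80, control mean -6.28, adjusted p = 5.9e-05). Traf3, a brake on noncanonical NF-kB signalling, was lower by -1.98 ± 0.20 (adjusted p = 7.8e-05) and also with spike-in scaling, by -0.69. With normexp Birc3 was -0.37.

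Ube2l3 hands ubiquitin to ligases of the RBR and HECT types, which take it onto a cysteine of their own. It read 1.08, 1.20, 1.25, 0.91 and 0.98 in PBS-treated EVs, against 0.31, 0.41, -0.01 and -0.01 in control EVs. All PBS-treated arrays lay above all control arrays, with a difference of 0.91 ± 0.14 (1.87-fold, adjusted p = 0.000739). Of 10 RBR ligases and linear-chain subunits, 8 were tested, 2 were higher, 1 was lower and 5 did not pass, with a median of 0.15. Rnf31, the catalytic subunit of the linear-chain complex, was lower by -1.61 ± 0.14 (adjusted p = 3.1e-05). Arih1, a ligase that pairs with Ube2l3 on cullins, was detected in PBS-treated EVs alone and was 1.88-fold higher at its bound (PBS-treated mean -4.49, control mean -5.92, adjusted p = 0.000378). With normexp Arih1 was -0.29. Ube2l3 rose, and its listed partners were called in both directions.

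The anaphase-promoting complex (APC/C), which ends mitosis, uses Ube2c to start chains and Ube2s to extend them. Ube2c read -0.82, -0.45, -0.65, -0.07 and -0.42 in PBS-treated EVs, against -1.41, -1.28, -0.86 and -1.33 in control EVs. The lowest PBS-treated array and the highest control array came close without crossing, and the difference was 0.74 ± 0.18 (1.67-fold, adjusted p = 0.00905), with an adjusted p of 0.0982 under normexp. Ube2s did not pass, at 0.52 ± 0.21 (adjusted p = 0.0708), and it was called higher without PBS-treated replicate 4 (0.65, adjusted p = 0.0278) and with slide as a block (0.47, adjusted p = 0.0122). Of 16 APC/C subunits and activators, 15 were tested, 7 were higher, 3 were lower and 5 did not pass, with a median of 0.48, or 0.35 with 1 gene that no control array detected at its bound. Cdc27, a core subunit, differed by 2.10 ± 0.13 (adjusted p = 7.8e-06) and Anapc16, a small subunit, by 1.18 ± 0.13 (adjusted p = 0.000142). Of 7 proliferation markers, 5 were higher, 1 lower and 1 did not pass, with a summed level of 1.56 to 1.71 (log2) in PBS-treated and 0.80 to 1.19 in control EVs, and their part in the values of Ube2c and Ube2s was not tested.

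The remaining 6 members fall in none of these groups, and Ube2cbp, Ube2ql1 and Ube2u among them were detected on no array. Ube2o, a large enzyme that joins E2 and E3 functions in 1 protein, read -1.30, -1.19, -1.28, -1.38 and -1.21 in PBS-treated EVs, against -1.85, -1.70, -1.89 and -1.80 in control EVs. The groups did not overlap, and the difference was 0.54 ± 0.10 (1.45-fold, adjusted p = 0.00211), with 0.52 on slide 1 and 0.55 on slide 2. The call was lost when all probes set the percentile (adjusted p = 0.091), with normexp (0.34, adjusted p = 0.102) and with no filter on dim probes (adjusted p = 0.057). Ube2q1 had a larger difference that did not pass, 1.32 ± 0.56 (adjusted p = 0.0789). It read -3.60 to -3.26 in PBS-treated EVs, and in control EVs -3.49 and -3.65 on slide 1 but -5.93 and -6.00 on slide 2, where the probe was not well above background. Without control replicate 1 or 2 the difference was 1.75 or 1.69 and was called higher, as it was with slide as a block (1.20, adjusted p = 0.0245), and with normexp it was -0.13. Ube2q2 did not pass (0.13 ± 0.39), with control arrays from -5.15 to -2.88 around PBS-treated arrays from -4.12 to -3.92.

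The size of the change differed between the slides for most members. In 14 of the 17 called members the difference was larger in the positive direction on slide 2 than on slide 1, and the difference between the slides was not tested. The same count is not given over all genes, so it has no background. The fall of Ube2g2 was also larger on slide 2, at -0.72 against -0.39 on slide 1. The median over the 28 members was 0.59 on slide 1 and 1.01 on slide 2, against -0.07 and 0.09 over all genes tested. Control replicates 3 and 4, the control arrays of slide 2, had the fewest probes above background, and without both of them the members' median was 0.53, against 0.14 over all genes.

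**Figure D3:**
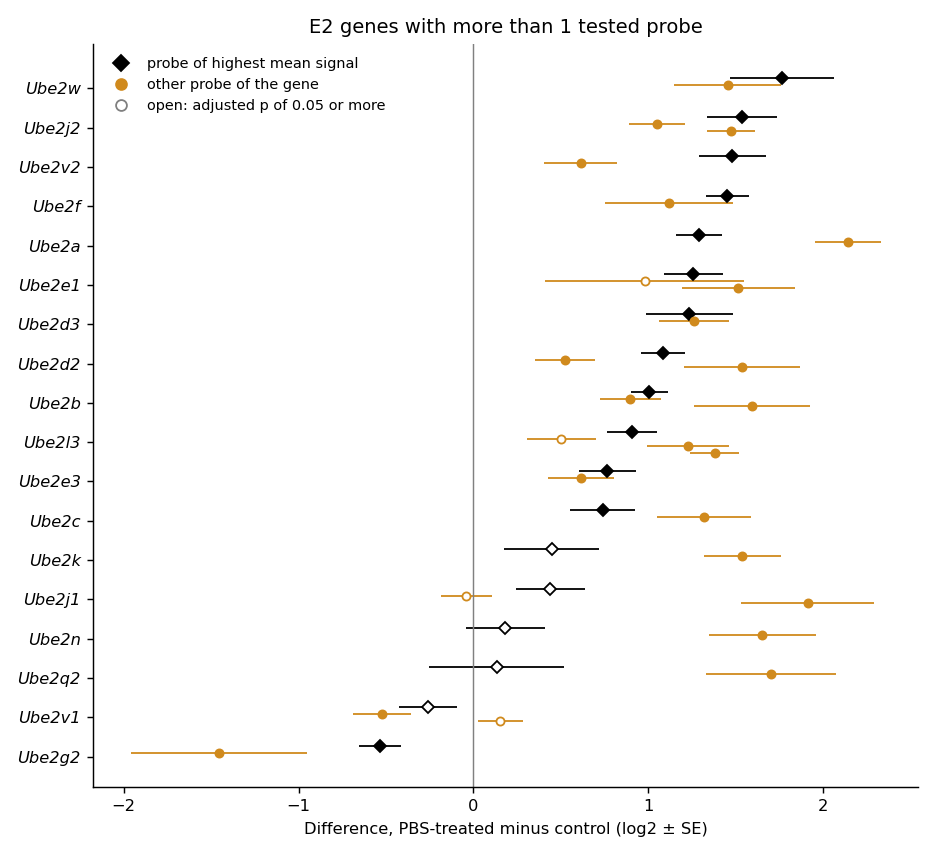
Differences of every tested probe (x axis, PBS-treated minus control, log2 ± SE) for 18 of the 19 E2 genes with more than 1 tested probe. Black diamonds are the probes of highest mean signal, orange circles the genes' other probes, and open symbols have an adjusted p of 0.05 or more. Other probes of Ube2k, Ube2j1, Ube2n and Ube2q2 lie above 1.5 where the brightest probe did not pass. No control array detected that Ube2j1 probe, so its plotted value is a fitted one and its bound is 1.26-fold. Those of Ube2n and Ube2q2 were detected on 2 of the 4 control arrays.

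The array carries 66 probes for the 34 genes, and tested one by one, 57 passed the filter, of which 36 were higher, 4 lower and 17 not called. The share called among all 17765 probes tested singly is not given here, so these counts have no background. For 16 of the 19 genes with more than 1 tested probe all probes had the same sign, and for 3, Ube2j1 and Ube2v1 among them, they did not. In none of the 19 were probes called in both directions. The lower probes included both of Ube2g2 and a Ube2v1 probe (-0.52 ± 0.17, adjusted p = 0.027). Among the members that did not pass, a dimmer probe was called higher in 4. These were the second probes of Ube2k (1.54 ± 0.22, adjusted p = 0.00049), Ube2n (1.65 ± 0.30, adjusted p = 0.00194) and Ube2q2 (1.70 ± 0.37, adjusted p = 0.00472). The other was a Ube2j1 probe detected on no control array, 1.26-fold higher at its bound (PBS-treated mean -5.24, control mean -7.15, adjusted p = 0.00287). The Ube2k probe was detected on all 4 control arrays, and the Ube2n and Ube2q2 probes on only 2 of the 4. Control replicates 3 and 4 did not detect these last probes, and their values there are near background. Whether such probes measure other transcripts of the gene was not tested.

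For 7 of the 66 probes the 60 bases span over 100 bases of the genome, as probes across a splice junction do. Over all probes with coordinates the share is 2.8%. Only 1 of the 7, that of Ube2k, is its gene's brightest probe. The split probes of Ube2n, Ube2d3 and Ube2j2 were called higher (adjusted p = 0.00194, 0.000923 and 0.000673). Those of Ube2n and Ube2j2 were detected on 2 of the 4 control arrays. The Ube2f split probe, detected on 4 PBS-treated arrays and no control array, was 1.14-fold higher at its bound (PBS-treated mean -5.18, control mean -6.29, adjusted p = 0.03). In Ube2n the brightest probe did not pass, and in Ube2d3, Ube2f and Ube2j2 it was called higher. The split probes of Ube2k and Ube2v1 did not pass (0.45 ± 0.27 and 0.15 ± 0.13).

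Genes upstream of the E2 step, and those with an E2 fold under another name, were counted the same way. Of 10 E1 enzymes, 8 were tested, 4 were higher, 0 were lower and 4 did not pass, with a median of 0.49. Uba1, which activates most of the ubiquitin of a cell, averaged 1.58 ± 0.15 on PBS-treated arrays and 0.72 ± 0.24 on control arrays (SD), which differ by 0.86 ± 0.15 (SE, adjusted p = 0.00132). Uba2, a subunit of the SUMO E1, differed by 1.77 ± 0.17 (adjusted p = 4.9e-05). Of 8 E2-fold genes without the Ube2 name, 6 were tested, with 2 higher (Atg3 and Cdc34), 1 lower and 3 not passing. Atg3, the E2-like enzyme of autophagosome lipidation, differed by 1.27 ± 0.24 (adjusted p = 0.00221), and Cdc34, the SCF partner, by 0.57 ± 0.13 (adjusted p = 0.00546).

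The modifiers themselves were also measured. Of 12 genes for ubiquitin and ubiquitin-like proteins, 11 were tested, 7 were higher, 1 was lower and 3 did not pass, with a median of 0.66. Isg15, the modifier carried by Ube2l6, averaged 1.68 ± 0.18 on PBS-treated arrays and 0.82 ± 0.05 on control arrays (SD), which differ by 0.86 ± 0.12 (adjusted p = 0.000491). Over the 10 partner lists, 90 of 109 genes were tested, and 41 were higher and 10 lower, a split that was 77 and 1 with spike-in scaling and 24 and 13 with normexp. Over all 14284 genes tested, 31.6% were higher and 20.7% lower (4512 and 2955). That split also moved, to 8951 and 708 with spike-in scaling and to 1887 and 4652 with normexp. Some listed genes stand for partners of several E2 enzymes, and the lists do not measure who binds whom.

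**Figure D4:**
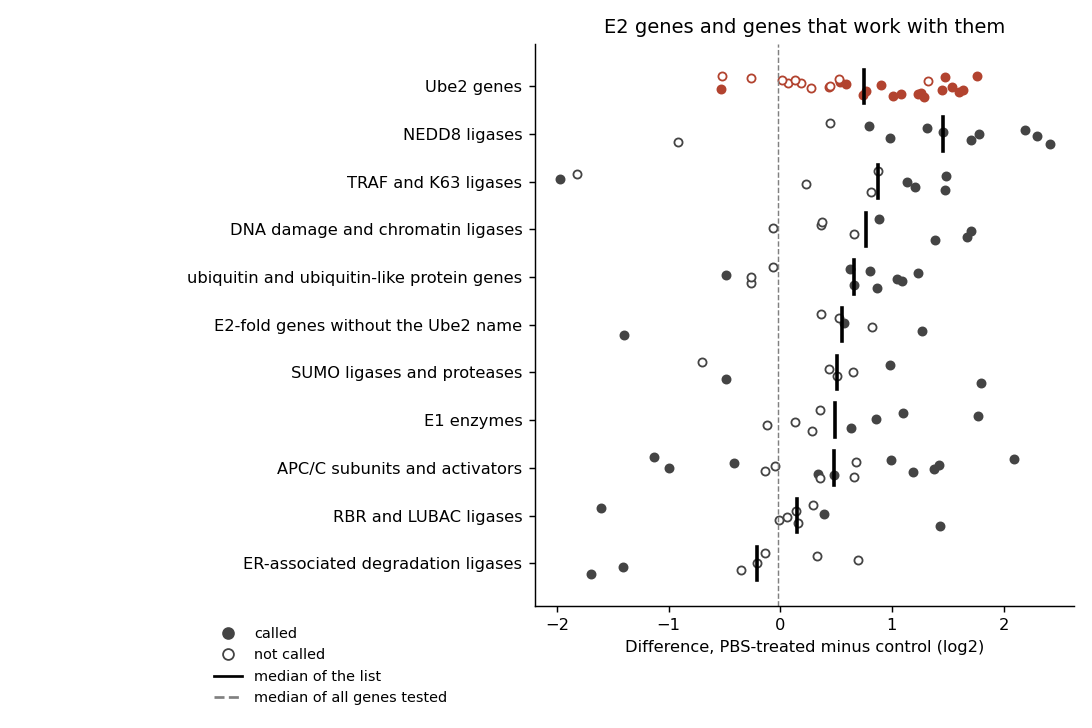
Differences of the 28 tested E2 genes (top row, red) and of the tested genes of 10 partner lists (x axis, PBS-treated minus control, log2). Filled circles are called, open circles are not, black bars are list medians and the dashed line is the median of all genes tested (-0.02). The NEDD8 ligase list, which includes cullins, lies farthest to the right (median 1.46) and ER-associated degradation ligases to the left (median -0.21).

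The members' median moved with the scaling and stayed above that of all genes. It was 0.75, 1.16, 2.04, 0.87, 0.33 and 0.60 with the percentile of detected probes, the percentile of all probes, spike-in RNAs, quantile normalization, normexp and the authors' value table. The median of all genes moved with it, at -0.02, 0.39, 1.27, 0.23, -0.51 and 0.10, and the distance between them lay between 0.50 and 0.85. With both percentiles and the spike-in RNAs that distance is the same by construction, at 0.77, since these scalings add a constant to all genes. Of the 28 tested members, 23 to 26 lay above the median of all genes under these 6 settings.

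**Figure D5:**
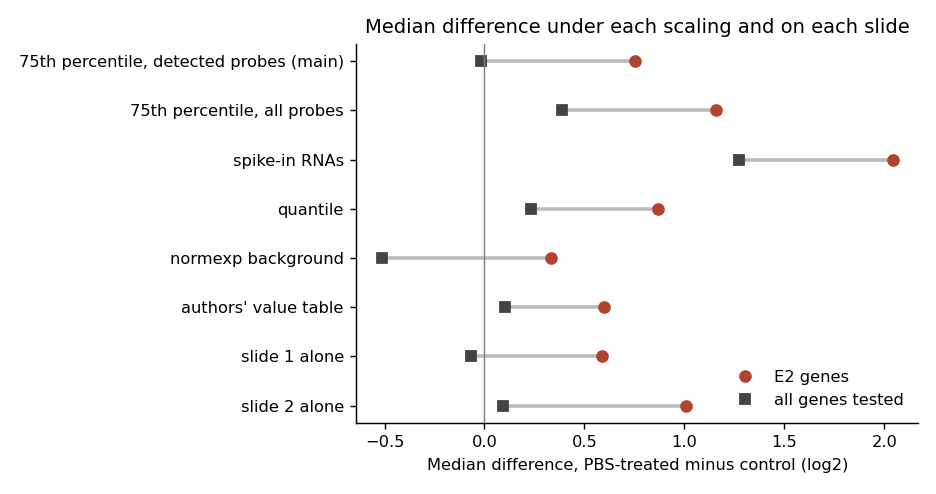
Median difference (x axis, PBS-treated minus control, log2) of the 28 tested E2 genes (red circles) and of all genes tested (dark squares) under 6 ways of scaling or background correction and on each slide alone. Both medians shift with the scaling, and the E2 genes lie 0.50 to 0.92 to the right of all genes in every row.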

How the data were processed

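EV RNA was labelled with cyanine 3 and hybridised to 1-colour Agilent mouse arrays. Per the file headers, the authors deposited Agilent scanner files from version 10.7.3.1 of Feature Extraction, with background-corrected and raw intensities on a linear scale, and a value table of log2 values. The methods name the SLIMarray pipeline, and its normalization steps are not stated in the sources used here. Each deposited log2 column had the same median (5.97) and range and ranked probes by raw signal. The value table served as an alternative only.

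Control and non-uniform spots were left out and spots of a probe averaged (55681 probes). Log2 intensities were set relative to each array's 75th percentile over the 8422 probes that every array detected well above background, since on the median array 29.6% were. Genes well above background on at least 4 arrays were fitted with limma 3.58.1 in R 4.3.3 (lmFit, eBayes, two-sided; checked on simulated data), with adjusted p-values over 14284 genes. Differences carry standard errors. The number of arrays limits the precision. Where no array of a group was well above background, a fold is given as a bound. It is set against, on each array, the lowest signal that was well above background, or the probe's signal if higher. Some undetected signals lay above that lowest signal, so such a bound is not a strict lower limit.

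All 34 members were matched by array name, and RefSeq (GRCm38.p6) holds 33 under a current symbol or, for 1, a new one. Probe coordinates are the array's, on mm9. No exon or UTR annotation of that build was used here. Values on every array are given for the 8 largest fitted rises and falls among called members without overlap, for the member of highest level in each role group and for members detected in 1 group only. Each partner list names its 2 genes of smallest p. A few genes that these rules would name are counted in their groups and not reported by name here. Further probes and other values were chosen after they were seen. The members, roles and lists were chosen with earlier results of these data known. Alternatives were other scalings, normexp (offset 50), the value table, detection filters, probe choice, slide, replicate block, array weights, a robust trend, the methods' t-test and leaving out arrays; each other probe of a member by itself was added after seeing the data. Tables and figures used matplotlib 3.10.9, pandas 2.3.3 and numpy 2.4.6 in Python 3.11.15.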

Additional observations from a re-analysis of the deposited data

Results flagged for a closer look

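Among 56 groups of arrays (28 tested E2 genes in each of the 2 conditions), 5 held an array set apart from the rest by a large share of the group's range, and chance alone marks about 1 group in 20. Ube2d3 read -1.44 on PBS-treated replicate 3, against -0.90 to -0.71 on the other PBS-treated arrays. On the same array Ube2r2 read -2.01, against -0.64 to -0.28 on the others. Ube2e3 read -0.72 on PBS-treated replicate 5, against -1.20 to -1.09. Ube2e1 read -2.51 on control replicate 4, against -2.27 to -2.24 on the other control arrays. Ube2g1 read -8.06 on control replicate 1, against -6.57 to -6.44, and no control array detected it. The calls of Ube2d3, Ube2e3, Ube2e1 and Ube2g1 did not depend on these arrays, since each was called with any 1 array left out, and Ube2r2 was not called with any 1 array left out.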

How the results depend on the processing

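Of the 17 called members, 10 kept call and direction in all 25 alternatives, 9 of which leave out 1 array. With spike-in scaling 28 members were called, 28 higher and 0 lower. The number lower was also 0 with the percentile over all probes, quantile normalization, the authors' value table and no filter on dim probes, and 2 when a gene's probes were averaged, slide as a block, slide 1 alone, array weights, and without control replicates 3 and 4. With normexp it was 1, which was Ube2z and not Ube2g2. Leaving out 1 array gave 16 to 18 members called, 15 to 17 higher and 1 to 2 lower (2 without control replicate 4), and a median of 0.68 to 0.81. The members' median was 1.16 with the percentile over all probes, 2.04 with spike-in scaling, 0.33 with normexp, 0.60 with the value table, 0.53 with no filter, 0.998 with the mean of probes, 0.59 on slide 1, 1.01 on slide 2, 0.56 with array weights and 0.53 without control replicates 3 and 4.

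Over all genes, 4880 were called with the percentile over all probes (1351 lower) and 4482 among those detected on all arrays (2363 higher). Higher calls were 8951 with spike-in scaling and 1887 with normexp. Lower calls were 708 with spike-in scaling, 4652 with normexp, 1887 with the value table, 5269 with no filter, 4891 with slide as a block and 4479 on slide 1. Leaving out 1 array gave 6649 to 7358 calls.

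Among called members, signs turned for Ube2g1 (-0.46), Ube2l6 (-0.24) and Ube2w (-0.025) with normexp and for Ube2g2 (0.76) with spike-in scaling, where Ube2v1 (1.03) and Ube2z (0.77), which had values below 0 and did not pass, were called higher. Ube2k, Ube2m, Ube2n, Ube2q1, Ube2q2 and Ube2r2, which did not pass, also changed sign in 1 or more alternatives, without a call on the other side. Spike-in scaling adds a constant. The cause of the other changes was not tested.

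Whether arrays with the same replicate number form pairs cannot be told here, because the sign of every correlation followed the slide. Deviations of same-number arrays correlated at 0.703, 0.728 and 0.741 where both lay on 1 slide and at -0.536 for number 3, which spans the slides. Those of arrays with different numbers correlated at 0.569 to 0.711 on 1 slide and were all negative across slides. With the replicate number as a block (replicate block), 16 members were called, with Ube2l6 lost, and 7432 genes, 4082 higher and 3350 lower; the members' median was 0.70.

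Signal over background limits Ube2g1, Ube2l6, Ube2n, Ube2q1, Ube2q2 and Ube2w, which some or all control arrays did not detect, and the 6 untested members. The 4 control arrays limit what a difference can show.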
